A study of Mus musculus with 6 samples.

Results

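Ribosome biogenesis factors are the proteins that transcribe, modify, cut and package ribosomal RNA in the nucleolus. Transcript levels of 39 such genes, chosen by name for their nucleolar or ribosome assembly function, were compared in liver iNKT1 cells of mice by RNA sequencing. Earlier results of these data were known when the genes were chosen, so comparisons with all genes are descriptive. All 39 were among the 12942 genes of the deposited table, and all 39 passed the filter on low values that left 11226 genes for testing. iNKT1 cells are T cells with an innate-like response to lipid antigens shown by CD1d, and T-bet, which Tbx21 encodes, directs their programme. They were sorted with CD1d tetramer and a YFP reporter. Control cells carried Cre in the Tbx21 locus and the Rosa26-YFP reporter. The cKOHet cells carried the same Cre and reporter together with floxed Ets1 on both alleles and 1 floxed Tbx21 allele, so that Ets1 loss and Tbx21 dosage cannot be told apart. Each group had 3 libraries, numbered 1, 2 and 4 in the titles. The titles of control replicate 4 and cKOHet replicate 1 say iNKT, while the cell type given for all 6 libraries is iNKT1. In both groups the column of replicate 1 has a code that joins the names of samples 1 and 3, and the labels do not say whether material was pooled there. Ages were not given in the labels. Cre under Tbx21 acts only in cells that have used that locus, and the labels do not say how many mice stand behind a library. The thymic cells and the Ets1-only knockout that the series also names are not analysed here.

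A ribosome begins as a long precursor RNA made by RNA polymerase I from repeated genes. While the precursor is still being made, small nucleolar RNPs mark it by methylation and pseudouridylation, and a large particle called the small-subunit processome folds and cuts it. Separate sets of factors then finish the small and the large subunit and release them to the cytoplasm. Lymphocytes raise these genes when they grow and divide, and the transcription factor Myc is a known activator of many of them.

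All 39 genes had a lower mean level on the log scale in cKOHet than in control cells. The differences were small. The median log2 fold change of the 39 genes was -0.30, with a range from -0.84 (Rrs1) to -0.01 (Ubtf), while the median over all tested genes was 0.01. The test called 6 of the 39 genes (15.4%), and all 6 were lower: Ncl, Npm1, Polr1a, Rrs1, Heatr1 and Mybbp1a. None was called higher, and none had an unadjusted p under 0.05 in that direction (limma), against 15 genes in the lower direction. Over all genes tested, limma called 21.4% at a Benjamini-Hochberg adjusted p under 0.05, 9.97% lower and 11.5% higher. In the main fit the share of members called lower was above the background of 9.97%, and most members were not called one by one. This excess did not hold in every fit. The share was 5.13% against 7.78% of all genes without control replicate 1, and 5.13% against 7.38% without control replicate 4. It was 7.69% against 8.28% without cKOHet replicate 2, and 0% against 6.89% without the mean-variance trend. In other fits it stayed above. A log2 fold change below 0 was found at 49.2% of all genes. Among the 7464 tested genes whose control mean lay in the members' own range (80.4 to 5059 normalised read counts), the median was -0.01, 50.6% lay below 0 and 12.0% were called lower.

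Levels below are the authors' normalised read counts per gene, and a fold change is a difference of mean log2(value + 1). Every cKOHet library lay below every control library at 16 of the 39 genes (41.0%), against 16.7% of all genes, and at no member did every cKOHet library lie above. The summed level of the 39 genes was 24010, 22781 and 26523 in control replicates 1, 2 and 4 and 20042, 17954 and 19854 in cKOHet replicates 1, 2 and 4. As a share of all reads in the table this was 0.469%, 0.456% and 0.510% in controls and 0.397%, 0.353% and 0.380% in cKOHet libraries, so that the groups did not overlap. Ncl (means 5059 and 3460) and Npm1 (3691 and 2651) held much of the sum and of its difference. In bulk RNA a smaller number of actively growing cells and less RNA of the 39 genes in each cell cannot be told apart. The libraries did not contribute equally, and the 39 genes also shifted together between controls. Against the mean of the other 2 controls, the members' median was -0.04, -0.20 and 0.20 in control replicates 1, 2 and 4. Of the 39 genes, 20, 28 and 5 lay below that mean. Against the mean of all 3 controls, the median was -0.19, -0.41 and -0.29 in cKOHet replicates 1, 2 and 4. The 39 genes are therefore not 39 separate observations. Control replicate 4 was the highest library at 23 of the 39 genes, and cKOHet replicate 2 was the lowest at 17, cKOHet replicate 4 at 13 and cKOHet replicate 1 at 7. Without control replicate 4 the median of the members was -0.21, 35 of 39 genes lay below 0 and 2 were called. Leaving out control replicate 1 also left 2 calls, and leaving out cKOHet replicate 2 left 3.

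**Figure D1:**
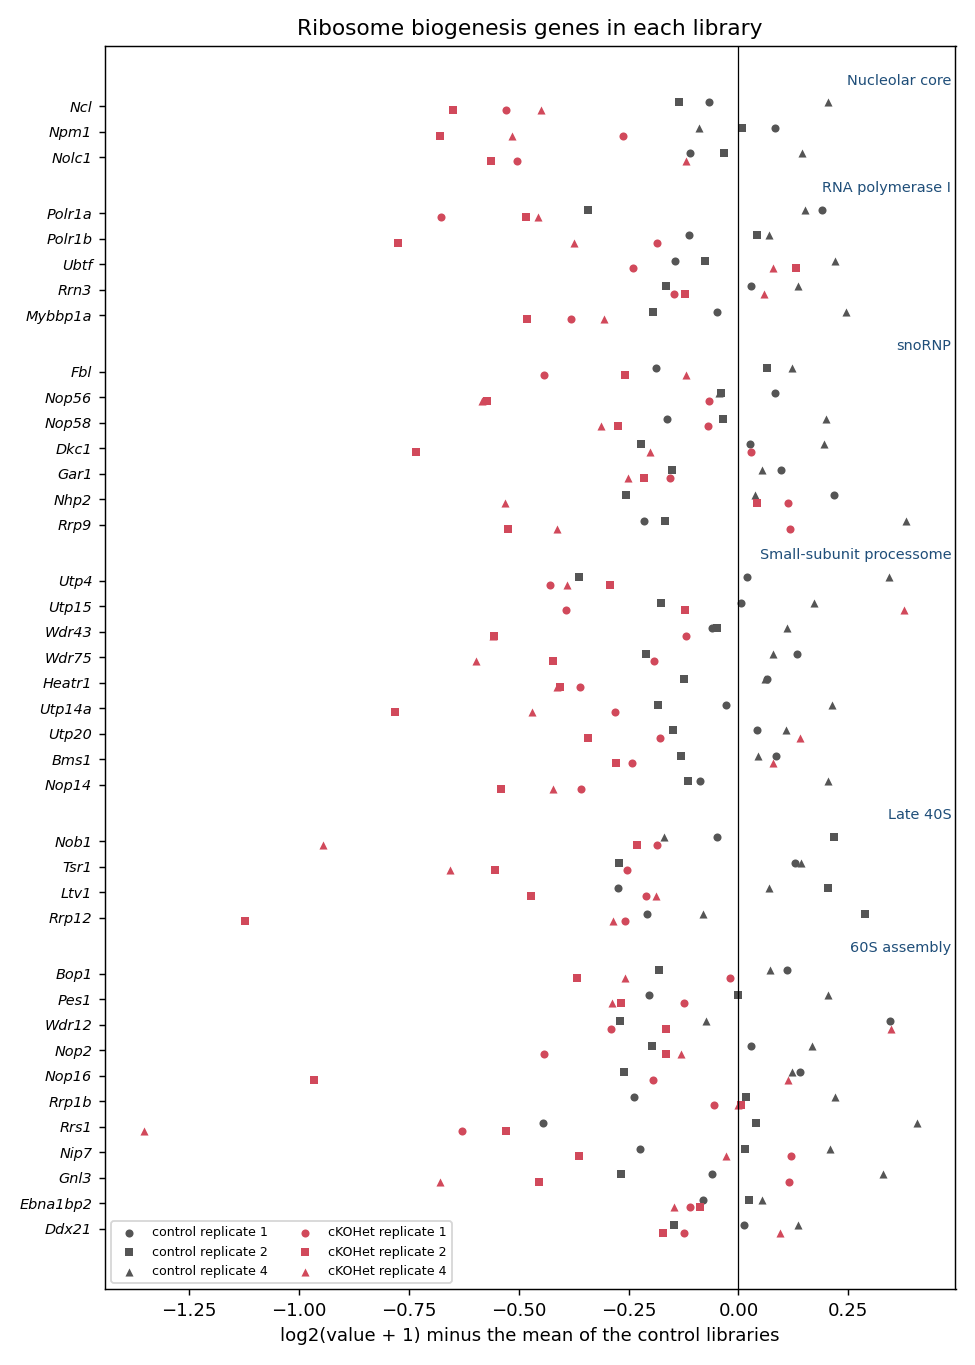
Each of the 39 genes in each library, as log2(value + 1) minus the mean of the 3 control libraries (x axis), with genes in rows grouped by role. Grey symbols are control and red symbols cKOHet libraries, and circles, squares and triangles are replicates 1, 2 and 4. Most red symbols lie left of 0, and the groups separate at 16 genes.

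The libraries fitted their labels at Ets1, which is floxed on both alleles in cKOHet cells. Ets1 measured 7391, 6255 and 7787 in the controls, against 462, 596 and 441 in the cKOHet group (log2 fold change -3.84, SE 0.14, limma adjusted p = 1.06e-10), and Tbx21 averaged 2568 and 2206 (-0.22, adjusted p = 0.196). Column sums were 4996523 to 5219483, and the original depth is unknown. All 10 T cell and iNKT markers were at 545.5 or more in every library and summed to 48882 to 52793 in controls and 42830 to 48034 in cKOHet libraries, but not all were level. Il2rb fell from 19870, 20470 and 20440 to 10600, 12190 and 14340, and Cxcr3 from 3509, 3285 and 3503 to 2437, 2223 and 2558. Zbtb16 rose from 670.1, 646.6 and 626.9 to 797.7, 810.1 and 1255, and Cd247 from 1024, 953.6 and 958.8 to 1265, 1287 and 1233. Klrb1c, not called, was at 545.5 to 1289 in 5 libraries and at 2626 in control replicate 4, the highest library at 23 members. Replicate 4 of both groups had almost no Xist (1.17 and 0.08, against 4337 to 5657 in the other 4 libraries). Among markers of other cells, the 9 macrophage and Kupffer cell genes summed to 34.4 to 97.5 in controls and 144.5 to 203.3 in cKOHet libraries. The 3 of 6 dendritic cell genes in the table summed to 103.8 to 144.8 and 205.5 to 230.7, and the 8 of 9 hepatocyte genes to 220.9 to 406.7 and 258.3 to 642.5. The 2 of 6 liver endothelium genes in the table summed to 172.2 to 223.6 and 48.9 to 52.4. Of these, Pecam1 fell (220, 197.1 and 172.2 to 51.38, 42.48 and 36.51), while Stab2 overlapped at 0.038 to 3.68 and 1.01 to 12.4. Cd22, the 1 of 6 B cell genes in the table, had control values of 12.6 to 22.0 and cKOHet values of 0.00741, 0 and 0.0415. The 1 of 6 erythroid genes was at 0 to 0.1 and 7.4 to 33.2 and the 2 of 4 platelet genes summed to 9.5 to 13.9 and 5.3 to 17.7. No neutrophil or stellate cell gene of the lists was in the table. Of the CD8 pair, Cd8a rose from 20.13, 10.67 and 12.81 to 236.7, 1657 and 440.2, with its peak in cKOHet replicate 2, the library lowest at 17 members. Cd8b1 overlapped (3.556, 31.54 and 16.94, and 15.11, 35.4 and 13.56) and was not called, and the pair summed to 23.7 to 42.2 and 251.8 to 1693. The part of these cells in the members' levels was not tested. For Xist there are 2 further fits. With the term for low Xist 7 members were called and the median was -0.30. In replicates 1 and 2 alone, which have high Xist, 3 members were called, 36 lay below 0 and the median was -0.27.

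Of 3 genes for abundant nucleolar proteins, the RNA of 2 fell and that of Nolc1 was not called. Over all genes 9.97% were called lower. Ncl encodes nucleolin, an RNA-binding protein that coats nascent ribosomal RNA (ENSMUSG00000026234, mm10 chromosome 1, 86344719 to 86359400). Controls 1, 2 and 4 measured 4802, 4581 and 5794, and the cKOHet libraries 3486, 3207 and 3686. The groups lay well apart, with a log2 fold change of -0.54 (SE 0.13, 95% interval -0.81 to -0.27, limma adjusted p = 0.00574), or 1.46-fold lower. Its call held whichever single library was left out (adjusted p 0.00832 to 0.0344). Npm1 encodes nucleophosmin, a histone and ribosome chaperone (chromosome 11, 33152287 to 33163206). Its control values were 3903, 3706 and 3465 and its cKOHet values 3074, 2301 and 2578, again without overlap (log2 -0.49, SE 0.13, adjusted p = 0.0123). That call ended without control replicate 1 (adjusted p = 0.0623) or cKOHet replicate 2 (0.0706). Transcripts of 3 other genes match Npm1 over at least 300 bases at 95% identity or more, and 1 of them, Gm14681, was in the table at 3.61 to 16.6, so some reads may have been shared between these copies. Nolc1, a chaperone of small nucleolar RNPs, averaged 629 ± 58.1 (SD, n = 3) in controls and 481 ± 83.8 in cKOHet libraries and was not called (adjusted p = 0.0657), although its groups did not overlap. It was called in 6 other fits at the same threshold, among them that with the term for low Xist (adjusted p = 0.0315).

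Per kilobase of coding sequence, Npm1 and Ncl were also the most abundant of the 39 genes, at 4214 and 2385 normalised read counts per kb in controls. Ddx21 came next at 729, then Ubtf at 526.5 and Fbl at 486. Utp20 (36.8), Rrp12 (43.3) and Wdr12 (63.4) were the lowest. These values divide reads of the whole transcript by the coding length alone, so genes with long untranslated regions are placed too high.

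Of 5 genes for RNA polymerase I transcription, 2 fell (40%, against 9.97% of all genes called lower) and 3 were not called. Polr1a, the largest subunit of the polymerase (chromosome 6), had control values of 560, 386 and 544 and cKOHet values of 306, 350 and 357. Control replicate 2 lay close to the cKOHet range but above it, and the log2 fold change was -0.54 (SE 0.16, adjusted p = 0.0242). It was no longer called when control replicate 1 (adjusted p = 0.119), control replicate 4 (0.103) or cKOHet replicate 1 (0.0848) was left out. Mybbp1a, a nucleolar protein that binds the polymerase and takes part in ribosomal RNA processing (chromosome 11), had control values of 1045, 944 and 1280 and cKOHet values of 830, 774 and 874 (log2 -0.39, SE 0.13, adjusted p = 0.0460). The groups did not overlap, but the call ended without any library other than control replicate 2 (adjusted p 0.0534 to 0.210). It also ended when genes with low values were kept in the test (0.0525). Polr1b, the other large catalytic subunit, averaged 242 ± 16.3 and 180 ± 36.3 (log2 -0.44, adjusted p = 0.106). The factors that bring the polymerase to the ribosomal genes were not called. Ubtf, which binds ribosomal DNA, averaged 1207 ± 167 and 1199 ± 161 (log2 -0.01, 95% interval -0.30 to 0.28), and Rrn3, which bridges polymerase and promoter, 317 ± 32.8 and 301 ± 24.0 (-0.07, 95% interval -0.39 to 0.25).

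**Figure D2:**
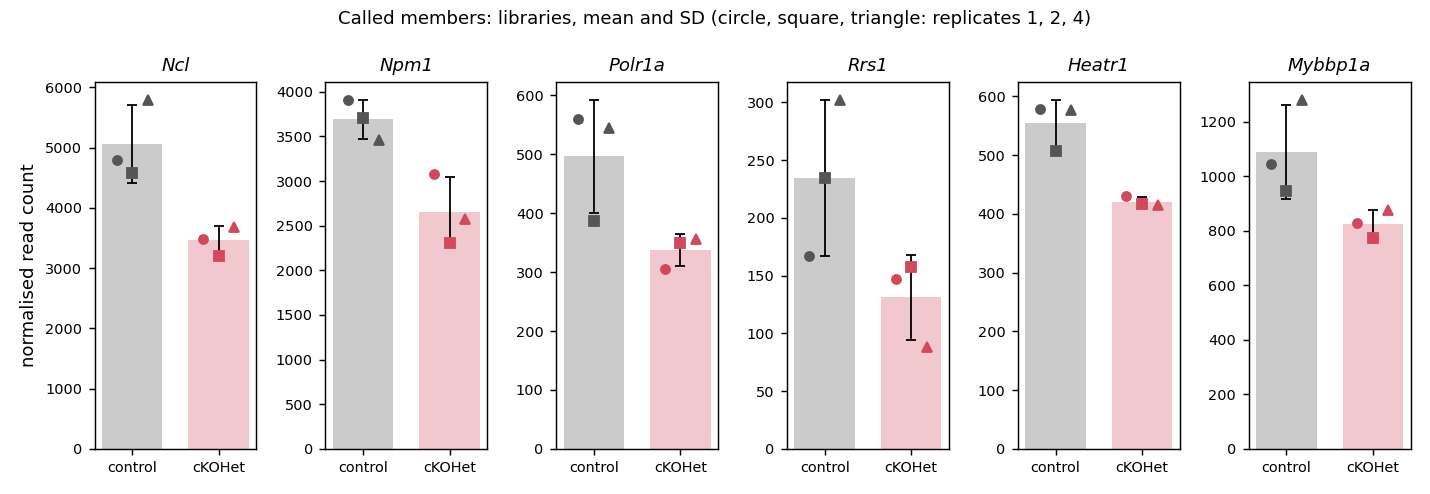
Normalised read counts (y axis, from 0) of the 6 called genes, ordered by adjusted p. Symbols are libraries (circle, square and triangle for replicates 1, 2 and 4), bars are group means and lines the SD of 3 libraries. In each panel the 3 cKOHet libraries lie below the 3 controls, with the narrowest gap at Rrs1 and Polr1a.

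RNAs of small nucleolar RNP proteins were lower in the mean by smaller amounts. Of these 7 genes limma called none (1 at an unadjusted p under 0.05), against 9.97% of all genes called lower. In the box C/D particle, which guides methylation, the methyltransferase gene Fbl averaged 477 ± 52.7 and 394 ± 43.8 (log2 -0.27, adjusted p = 0.206). Its partners were Nop56, with control values of 744, 684 and 681 and cKOHet values of 671, 472 and 468 (log2 -0.41, adjusted p = 0.0637), without overlap, and Nop58, with means of 577 ± 74.5 and 495 ± 45.8 (-0.22). Nop56 was called with a replicate block (adjusted p = 0.0464), upper quartile scaling (0.0470), library weights (0.0447) or without cKOHet replicate 1 (0.00799). In the H/ACA particle, which guides pseudouridylation, the pseudouridine synthase gene Dkc1 averaged 536 ± 76.7 and 442 ± 113 (-0.30). Gar1 averaged 131 ± 11.9 and 113 ± 3.81 (-0.21) and Nhp2 216 ± 35.1 and 200 ± 45.5 (-0.13). Gar1 did not overlap between groups although its difference was small. Rrp9, a protein of the particle that guides the first cuts of the precursor, averaged 182 ± 44.4 and 151 ± 38.0 (-0.27).

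The small-subunit processome had 1 called gene of 9 (11.1%, close to the 9.97% of all genes called lower), with a median log2 fold change of -0.39. Heatr1, a long repeat protein that joins the precursor during transcription (chromosome 13, 12395027 to 12440289), had control values of 578, 507 and 576 and cKOHet values of 430, 417 and 415. The cKOHet values lay close together below all controls, and the log2 fold change was -0.39 (SE 0.13, adjusted p = 0.0366). The call ended without any library other than control replicate 2 (adjusted p 0.0619 to 0.136), while its log2 fold change ranged from -0.45 to -0.36 over the 6 libraries left out in turn. Its partners in the same early complex were not called: Wdr43 averaged 592 ± 39.7 and 449 ± 82.5 (log2 -0.41, adjusted p = 0.0562), Wdr75 278 ± 34.4 and 210 ± 30.0 (-0.40) and Utp4 267 ± 64.6 and 203 ± 10.2 (-0.37). Wdr43 was called with a filter of 50, TMM or upper quartile scaling or library weights (adjusted p 0.0401 to 0.0499), and without cKOHet replicate 1 (0.0128). Utp15 was the exception in that complex, at 242 ± 29.3 and 239 ± 66.8 (-0.05), with cKOHet replicate 4 the highest of all 6 libraries. Of the later processome factors, Utp14a, which activates a helicase, averaged 227 ± 31.8 and 159 ± 27.5 (-0.51, adjusted p = 0.0706). Nop14 averaged 279 ± 35.6 and 205 ± 12.99 (-0.44, adjusted p = 0.0661), and both genes separated the groups. Utp14a was called without cKOHet replicate 1 (adjusted p = 0.0490) and Nop14 with upper quartile scaling (0.0429). The GTPase gene Bms1 (692 ± 53.7 and 627 ± 88.9) and the scaffold gene Utp20 (308 ± 28.1 and 284 ± 49.4) differed little.

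Factors of the late small subunit had a median of -0.47 over 4 genes. Limma called none of them (2 at an unadjusted p under 0.05), against 9.97% of all genes called lower. Tsr1, a GTPase-like protein of the late particle, had control values of 367, 277 and 370 and cKOHet values of 281, 228 and 212. It missed the threshold narrowly (log2 -0.49, adjusted p = 0.0534), and cKOHet replicate 1 overlapped control replicate 2. It was called with a filter of 50, with TMM or upper quartile scaling, with robust eBayes and with library weights (adjusted p 0.0399 to 0.0463), and without control replicate 2 (0.0273) or cKOHet replicate 1 (0.0323). Nob1, the endonuclease that makes the final cut of the small-subunit RNA, averaged 219 ± 30.7 and 163 ± 43.9 (-0.45). Rrp12, an export factor, had control values of 144, 203 and 157 and cKOHet values of 139, 75.9 and 136 (-0.56, adjusted p = 0.137), with cKOHet replicate 2 far below the others. Ltv1, which is released from the particle late, averaged 214 ± 35.5 and 174 ± 18.5 (-0.29).

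Large-subunit assembly genes had the smallest median difference of the groups (-0.22 for 11 genes), yet held the gene with the largest. Rrs1, which helps to place a small RNA particle into the large subunit (chromosome 1), had control values of 167, 234 and 302 and cKOHet values of 147, 158 and 88.5. The highest and the lowest value both came from replicate 4. The log2 fold change was -0.84 (SE 0.25, 95% interval -1.38 to -0.30, adjusted p = 0.0267). It was -0.63 without control replicate 4 (adjusted p = 0.142), -0.58 without cKOHet replicate 4 (0.122) and -0.38 in replicates 1 and 2 alone (0.336), and the call also ended without control replicate 2 (0.0724) and with library weights (0.0591). The 3 genes of one complex of this pathway, Pes1, Bop1 and Wdr12, were not called: Pes1 averaged 518 ± 73.2 and 440 ± 27.9 (-0.23), Bop1 424 ± 45.2 and 366 ± 46.3 (-0.22) and Wdr12 80.4 ± 18.2 and 78.6 ± 19.6 (-0.04, 95% interval -0.62 to 0.55).

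The remaining large-subunit genes were not called either. Nop2, a ribosomal RNA methyltransferase, averaged 298 ± 37.4 and 251 ± 28.9 (-0.25). Nop16 averaged 105 ± 15.8 and 85.2 ± 30.2 (-0.35), and Gnl3, which encodes the GTPase nucleostemin, 242 ± 52.2 and 194 ± 57.6 (-0.34). Ebna1bp2 averaged 331 ± 16.0 and 305 ± 6.39 (-0.11) and did not overlap between groups. Nip7 averaged 192 ± 28.8 and 181 ± 30.1 (-0.09), Rrp1b 221 ± 34.6 and 216 ± 5.001 (-0.02), and the helicase gene Ddx21 1861 ± 181 and 1776 ± 179 (-0.07, 95% interval -0.33 to 0.19). Ddx21, Ubtf and Ncl are all abundant, so the near-level values of the first pair were measured with a precision close to that of Ncl (SE 0.12 and 0.14, against 0.13).

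**Figure D3:**
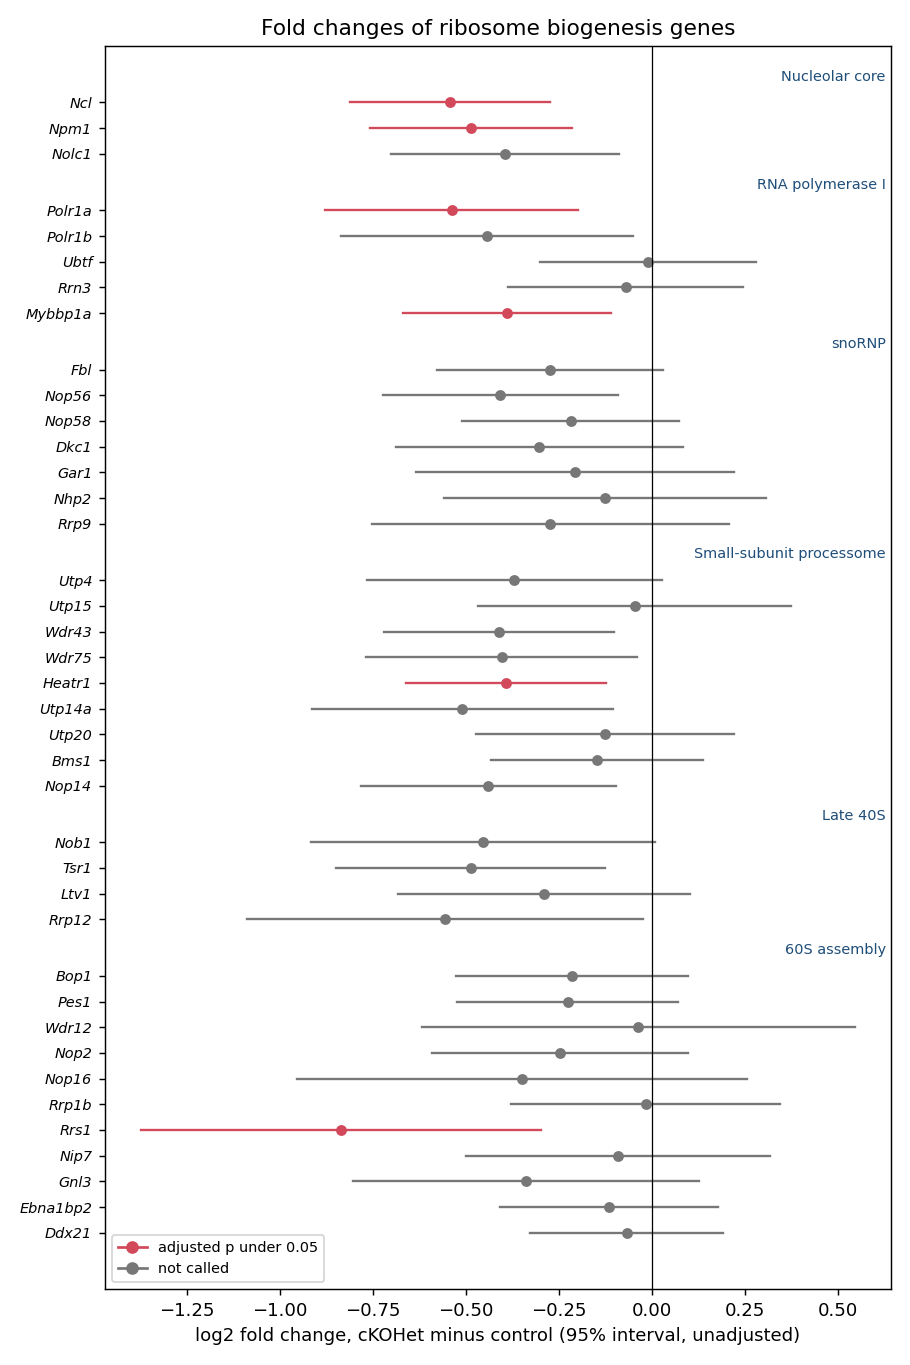
Log2 fold change of cKOHet minus control (x axis) with its unadjusted 95% interval for each of the 39 genes, grouped by role. Red genes passed an adjusted p of 0.05. All 39 points lie below 0, and 15 intervals exclude 0.

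What the genes share beyond their function was examined in the annotation and in promoter sequence. Small nucleolar RNAs, which guide the marks on ribosomal RNA, are often cut from introns of genes for nucleolar proteins. In GENCODE M21, 7 of the 39 genes (17.9%) enclosed at least 1 such RNA on the same strand, 21 in all: Ncl, Nop56, Nop58, Dkc1, Wdr43, Tsr1 and Gnl3. The share among 10060 protein-coding genes tested was 2.04%. The median log2 fold change was -0.41 in these 7 genes and -0.27 in the other 32 members, against -0.10 and 0.03 for hosts and other genes among all coding genes tested. The guide RNAs themselves were not measured here.

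Promoters were searched for 2 short motifs on both strands, in a window of 250 bases before to 50 bases after each start. The motifs were chosen because Ets1 is floxed on both alleles in cKOHet cells and Myc is a known activator of this pathway. RefSeq promoter entries (GRCm38.p6) were found for 34 of the 39 genes, with none for Npm1, Fbl, Rrp12, Bop1 and Rrs1. The letters CCGGAAGT, a core sequence bound by Ets family factors, were found at 10 of the 34 genes (29.4%), in 3.89% of all 32851 promoter entries, and at 10.7% of 8091 tested coding genes with an entry. The letters CACGTG, the E-box bound by Myc, were found at 9 of 34 (26.5%), in 7.15% of all entries and at 12.2% of tested coding genes. No letters are shared between a match of one motif and of the other, and 4 genes held both (Rrn3, Utp4, Tsr1 and Ltv1). The 10 genes with the Ets letters had a median log2 fold change of -0.18, and the 24 without them -0.34. For the E-box letters these medians were -0.29 and -0.30. A match describes letters only, not binding, and Ets family members other than Ets1 bind the same core.

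The 120 bases before the RefSeq start, read along the strand of the gene, are printed for 3 genes with the Ets letters and for Rrn3, which has an E-box. Heatr1 is shown because it is the only called gene with the Ets letters, Gar1 and Nip7 because they carry the same letters and were not called, and Rrn3 as a gene with both motifs and a near-level RNA. Capitals mark the Ets letters or their reverse complement ACTTCCGG, and in Rrn3 the E-box.
Heatr1, chr13:12395255-12395374, plus strand: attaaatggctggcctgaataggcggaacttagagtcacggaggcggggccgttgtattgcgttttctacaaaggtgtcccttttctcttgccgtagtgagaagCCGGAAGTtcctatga
Gar1, chr3:129831397-129831516, minus strand: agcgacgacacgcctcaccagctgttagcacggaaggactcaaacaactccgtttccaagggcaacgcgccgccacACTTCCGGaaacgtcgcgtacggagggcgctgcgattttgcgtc
Nip7, chr8:107056757-107056876, plus strand: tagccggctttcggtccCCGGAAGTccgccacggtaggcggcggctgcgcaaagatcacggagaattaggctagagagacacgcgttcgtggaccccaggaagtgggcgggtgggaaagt
Rrn3, chr16:13780579-13780698, plus strand: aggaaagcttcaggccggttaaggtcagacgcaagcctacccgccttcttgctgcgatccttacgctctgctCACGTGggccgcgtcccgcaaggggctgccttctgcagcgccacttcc

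In Heatr1 the match begins 16 bases before the start, in Gar1 44 and in Nip7 103. The E-box printed in Rrn3 begins 48 bases before the start, and its Ets letters begin 6 bases before the start and run past it. Heatr1 fell, and the log2 fold changes of the others were -0.21 (Gar1), -0.09 (Nip7) and -0.07 (Rrn3), none called.

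Other genes of the pathway, outside the 39, were lower in the mean less uniformly. Of 131 tested genes, 9 fell (6.87%), 3 rose and 119 were not called, with a median log2 fold change of -0.17 and 102 genes (77.9%) below 0. The share called lower was below the background of 9.97%, while the median was below that of all genes. Among 11 further RNA polymerase I genes, all lay below 0 and 2 fell (18.2%, against 9.97% of all genes). These were the shared subunit gene Polr1d (499 ± 4.46 to 333 ± 85.2, log2 -0.62, adjusted p = 0.0194) and the termination factor gene Ttf1 (290 ± 36.9 to 204 ± 21.6, -0.50, adjusted p = 0.0421). Among 51 further large-subunit genes 7 fell (13.7%, against 9.97% of all genes) and 2 rose. Nop53, a factor that hands the particle to the exosome, fell from 1927 ± 346 to 1293 ± 138 (-0.57, adjusted p = 0.00752). Nol9, an RNA kinase, fell from 394 to 272 (-0.53) and Urb2 from 182 to 114 (-0.67), and Ddx24, Surf6, Mrto4 and Mak16 fell by 0.38 to 0.68 on the log2 scale. Nvl, an ATPase of large-subunit release, rose from 285 ± 4.58 to 394 ± 39.3 (0.46, adjusted p = 0.0282), and Zfp593 rose from 4.45 ± 1.56 to 21.3 ± 5.82, a gene that reached the filter only in cKOHet libraries.

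The other lists held 1 call. Of 44 further small-subunit genes tested, limma called none lower (5 at an unadjusted p under 0.05), and the kinase gene Riok3 rose from 464 ± 17.8 to 621 ± 36.1 (0.42, adjusted p = 0.0230). Of 11 further small nucleolar RNP genes and 14 exosome genes limma called none (2 and 0 lower, and 0 and 0 higher, at an unadjusted p under 0.05). Their smallest adjusted p values were 0.0607 for Nufip1 (log2 -0.60) and 0.165 for Exosc3 (-0.42), and the exosome median was -0.03. Single libraries decided many of these calls. The count of genes called lower over the 5 lists, 9 with all libraries, was 1 without control replicate 4, 3 without control replicate 2, 5 without cKOHet replicate 2 and 4 without cKOHet replicate 4. Of the genes named from these lists, Nop53 kept its call whichever single library was left out. Zfp593 lost it without cKOHet replicate 4, and Polr1d, Ttf1, Nol9, Urb2, Riok3 and Nvl each lost it without at least 4 of the 6 libraries in turn. The 3 genes called higher became 1 when control replicate 1 or 4 or cKOHet replicate 2 or 4 was left out.

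The RNA of ribosomal proteins, which these factors help to assemble, was lower as well. Of 79 cytosolic ribosomal protein genes, 39 fell (49.4%, against 9.97% of all genes), with a median log2 fold change of -0.43. None was called higher, against 11.5% of all genes, and none had an unadjusted p under 0.05 in that direction (limma). Rpl12 fell from 8894 to 4004 (log2 -1.18, SE 0.16, adjusted p = 6.82e-05) and Rps16 from 5635 to 3052 (-0.90, adjusted p = 0.000171). Many of these genes have processed copies in the genome, which can share their reads. The count was 19 without control replicate 1, 22 without control replicate 4, 21 and 20 without cKOHet replicate 2 and 4, and 61 without cKOHet replicate 1. The difference between the 2 sets of genes was not tested.

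**Figure D4:**
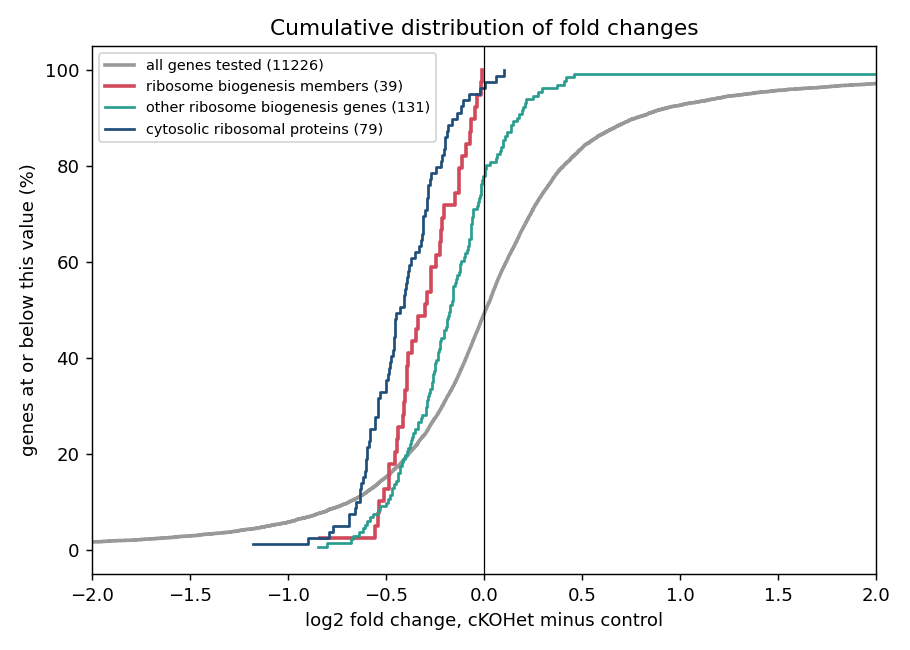
Cumulative share of genes (y axis, %) at or below a log2 fold change of cKOHet minus control (x axis, cut at -2 and 2) for all 11226 tested genes, the 39 ribosome biogenesis genes, 131 other genes of the pathway and 79 cytosolic ribosomal protein genes. The curves of the 39 genes and of the ribosomal proteins reach 50% left of 0, at about their medians of -0.30 and -0.43, and the curve of all genes at 0.01.

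Myc itself was at 433, 514 and 571 in controls and 527, 423 and 454 in cKOHet libraries, with full overlap (log2 -0.11, adjusted p = 0.661). Of 10 tested genes of its network, 1 was called lower (10%) and 1 higher, close to the 9.97% and 11.5% of all genes. The median log2 fold change of the network was -0.06. Max, the partner through which Myc binds DNA, fell from 704, 789 and 684 to 572, 500 and 470 (-0.50, SE 0.13, limma adjusted p = 0.0109). Its call ended without control replicate 2 (adjusted p = 0.0579). Mxd4, which competes with Myc for Max, rose from 1163, 1038 and 994 to 1662, 1622 and 2312 (0.79, SE 0.14, adjusted p = 0.000736). Both genes separated the groups. Of 24 proliferation genes 2 fell (8.33%, below the 9.97% of all genes), Cdt1 (341 ± 69.3 to 178 ± 47.2, log2 -0.94, adjusted p = 0.00384) and Mcm4 (1201 ± 137 to 884 ± 87.9, -0.44, adjusted p = 0.0202), and the median was -0.06. Mcm4 was not called without control replicate 2 or without cKOHet replicate 1 or 4, while Cdt1 and Mxd4 kept their calls whichever single library was left out.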

How the data were processed

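The authors deposited 1 signal value per gene and library, a normalised HTSeq count. The submitters' processing notes name Trimmomatic 0.33, STAR, HTSeq 0.6.1, DESeq2 and the mm10 build. Settings, annotation, strand and normalisation method were not stated in those sources. The values are not whole, and no gene stays below 5.22 in every library, so rare genes are absent. GENCODE M21 named 12864 of 12942 identifiers. Values were analysed as log2(value + 1), keeping genes at 10 or more in at least 3 of 6 libraries, with limma 3.58.1 in R 4.3.3 (cKOHet minus control, moderated statistics with a mean-variance trend, two-sided) and Benjamini-Hochberg adjustment over all genes. The procedure was tested on simulated data. Similar transcripts were found with minimap2 2.31-r1302 (95% identity over 300 bases). The series text calls the replicates independent but names no animals, and p-values cover only the spread of these libraries. Total depth is unknown. The members and gene lists were chosen with earlier results of these data known. All 39 members are named. Of the pathway lists the 3 called genes with the smallest adjusted p per direction are named, or the single smallest where none was called, and of the context lists the 2 smallest, with Ets1, Tbx21 and Myc.

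Without strand information, reads from overlapping genes on opposite strands cannot be told apart. Exons of 16 of the 39 members overlap another gene on the other strand, among them Heatr1 (Lgals8), Polr1a (Gm26628, at 0.85 to 16.0) and Mybbp1a (Spns2, not in the table). Lgals8 was at 367, 379 and 348 in control replicates 1, 2 and 4 and at 328, 281 and 270 in the same cKOHet replicates. It thus lay lower without overlap, like Heatr1, but was not called (log2 -0.32, limma adjusted p = 0.138). The part of shared reads was not tested. Similar transcripts elsewhere were found for 5 members (Npm1, Fbl, Nop56, Pes1 and Wdr12). Alternatives covered pseudocount, filter, scaling, variance model, library weights, a replicate block, the threshold, low Xist and each library left out. The fit of replicates 1 and 2 alone was added after the data were seen.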

Additional observations from a re-analysis of the deposited data

How the results depend on the processing

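The median log2 fold change of the 39 genes stayed below 0 in every fit run, from -0.36 to -0.205 with single libraries left out and from -0.348 to -0.266 otherwise. The count of members below 0 was 35 to 39 with single libraries left out. No scaling moved the median of all genes by 0.1 or more.

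Counts of calls depended more on the settings. Members called lower (6) became 11 with upper quartile scaling, 0 without the mean-variance trend, 1 at a threshold of 0.01, 12 at 0.1 and 3 in replicates 1 and 2 alone, and 2 to 7 with single libraries left out. Other pathway genes called lower (9) became 1 without the trend, 1 at 0.01, 16 at 0.1 and 0 in replicates 1 and 2 alone, and 1 to 11 with libraries left out. Those called higher (3) became 1, 0 at 0.01 and 1 in the same fits, and 1 to 2 with libraries left out. Ribosomal protein genes called lower (39) became 6 without the trend, 18 at 0.01 and 9 in replicates 1 and 2 alone, and 19 to 61 with libraries left out. Over all genes 1288 were called higher and 1119 lower, 806 and 670 at 0.01, and 1002 to 1174 and 829 to 1033 with libraries left out. A fit with a library left out changes both which library is missing and how many remain. The causes were not tested, apart from the thresholds themselves.

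Genes near 0 changed sign in some fits. Ubtf was at 0.03 with library weights, 0.10 without control replicate 4, 0.11 without cKOHet replicate 1 and 0.06 in replicates 1 and 2 alone. Rrp1b was at 0.02, 0.09, 0.00 and 0.08 in the same fits. Nhp2 was at 0.08 without cKOHet replicate 4 and 0.10 in replicates 1 and 2 alone, where Myc was at 0.00. Nip7 was at 0.01 without control replicate 4 and 0.05 without cKOHet replicate 2. Utp15 was at 0.04 without control replicate 4 and 0.13 without cKOHet replicate 1. Wdr12 was at 0.14 without control replicate 1, 0.09 without cKOHet replicate 1 and 0.03 without cKOHet replicate 2. The lowest values with 1 library left out were -0.08 (Ubtf), -0.14 (Rrp1b), -0.25 (Nhp2), -0.20 (Nip7), -0.26 (Utp15) and -0.23 (Wdr12).

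After removal of group means, same-numbered libraries correlated at 0.092, 0.088 and 0.055, each under 0.1, and every library correlated best with its own number. These values do not settle whether the replicate numbers pair the samples, and the main fit used no pairing. With a replicate block 8 members were called lower, Nolc1 and Nop56 in addition. Depth cannot be recovered from the deposited values, so no counting interval is given.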
